A study of Homo sapiens with 14 samples.

Results

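Expression of 9 neuronal genes was followed through the differentiation of NT2, a line of human embryonal carcinoma cells able to form nerve-like and other cell types. Of these, 5 encode transcription factors with a basic helix-loop-helix (bHLH) domain that act in nerve cell formation (NEUROG1, NEUROG2, NEUROD1, NEUROD4 and NHLH1), and 4 encode RNA-binding proteins typical of neurons (ELAVL2, ELAVL3, ELAVL4 and RBFOX3). They were taken by name from a count table of 25952 genes. All 9 were in the table and all 9 passed the filter on low counts that left 19142 genes for testing. The 14 libraries of total RNA form 7 groups of 2, called here by the names in the figures: untreated cells at day 0 (NT2-0), cells after 5, 10 and 21 days of all-trans retinoic acid (RA-5, RA-10, RA-21), and cells after 5, 10 and 21 days of bone morphogenetic protein 2 (BMP-5, BMP-10, BMP-21). Retinoic acid, dissolved in DMSO and brought to 10 µM in the medium, was the neuron-inducing treatment, and BMP2 the muscle-inducing one. BMP2 was first tried at 30 ng/ml and later used at 40 ng/ml, and the labels do not say which library had which dose. The day 0 cells are labelled as having had no treatment, so a difference from day 0 combines the agent, its solvent and the time in culture. A DMSO control is described in the labels but was not analysed here.

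Proneural bHLH factors such as the neurogenins commit progenitor cells to a nerve cell fate. They pair with widely expressed E-proteins, bind E-box sequences in DNA and switch on NeuroD factors and Notch ligands, while HES and ID proteins oppose them. The ELAVL2, ELAVL3 and ELAVL4 proteins, also known as HuB, HuC and HuD, stabilise messenger RNAs and steer splicing in neurons. RBFOX3 is the splicing regulator that the antibody NeuN recognises and a common marker of mature neurons.

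The sequences just upstream of the bHLH genes are shown because these genes are themselves targets of such factors and because NEUROG2, NEUROD1 and NEUROD4 peaked in the same library. Each run below holds the 250 bases before the RefSeq start site on build GRCh38.p14, 5′ to 3′ along the gene's strand, and capitals mark E-boxes, CANNTG, which reads the same on both strands. The NEUROG2 window is chr4:112516181-112516430 on the minus strand, that of NEUROD1 is chr2:181680518-181680767 on the minus strand, that of NEUROD4 is chr12:55019724-55019973 on the plus strand, and that of NHLH1 is chr1:160366821-160367070 on the plus strand.
NEUROG2: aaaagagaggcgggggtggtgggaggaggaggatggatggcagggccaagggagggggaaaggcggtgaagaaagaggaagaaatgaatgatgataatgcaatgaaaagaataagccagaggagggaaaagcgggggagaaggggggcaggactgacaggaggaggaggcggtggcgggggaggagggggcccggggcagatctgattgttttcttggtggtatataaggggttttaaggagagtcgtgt
NEUROD1: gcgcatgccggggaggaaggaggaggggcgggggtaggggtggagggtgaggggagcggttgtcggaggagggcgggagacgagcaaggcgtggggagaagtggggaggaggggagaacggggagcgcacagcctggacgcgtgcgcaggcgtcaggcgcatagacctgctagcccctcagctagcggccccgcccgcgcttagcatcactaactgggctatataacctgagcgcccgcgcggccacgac
NEUROD4: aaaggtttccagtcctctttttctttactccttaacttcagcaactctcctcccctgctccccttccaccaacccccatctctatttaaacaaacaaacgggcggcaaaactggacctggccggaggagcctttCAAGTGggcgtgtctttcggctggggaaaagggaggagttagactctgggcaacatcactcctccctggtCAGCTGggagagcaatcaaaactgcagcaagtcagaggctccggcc
NHLH1: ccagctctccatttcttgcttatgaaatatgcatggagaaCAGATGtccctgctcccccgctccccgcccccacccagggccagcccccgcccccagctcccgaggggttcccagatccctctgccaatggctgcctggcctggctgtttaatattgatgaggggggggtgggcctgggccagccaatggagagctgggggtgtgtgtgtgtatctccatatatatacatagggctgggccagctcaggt
The NEUROG2 and NEUROD1 windows held 0 E-boxes, NEUROD4 held 2 (CAAGTG and CAGCTG) and NHLH1 held 1 (CAGATG). NEUROG1 also held 0. Among 35116 RefSeq windows of the same length, 61.8% held an E-box, 14% held CAGCTG and 12.2% held CAGATG or its reverse complement CATCTG. A match describes these letters only. RefSeq promoter entries matched 8 of the 9 genes, and ELAVL3 had none.

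Total counts ran from 45773278 to 75754396 per library. Replicates correlated at r = 0.96 to 0.99 across 19142 genes (log2 CPM, where CPM is the count scaled to library size after TMM normalisation) except in BMP-10, with r = 0.92 and 33.5% of genes over 2-fold apart. Separate cultures are not stated in the labels, and the p-values rest on the spread among the 14 libraries, which may be technical. Of 12 neuron markers 10 were in the table, and their summed level was 335 and 336 CPM in NT2-0, 882 to 1179 in RA-10, 630 to 667 in RA-21 and 296 to 374 over the 6 BMP2 libraries. NEFM, a neurofilament gene, made up 32 and 28.4 CPM of it in NT2-0, 718 and 369 in RA-10, and 358 and 359 in RA-21. Of the 10, 5 rose and 1 fell at RA-10 against NT2-0 (edgeR adjusted p under 0.05), beside 24% of all genes tested. At RA-21, 3 rose and 3 fell, beside 44.6%, and the median log2 fold change of the 10 was -0.61. At BMP-5 and at BMP-10, 1 rose and 1 fell, beside 29.2% and 36.3%, with medians of 0.38 and 0.13. At BMP-21, 3 rose and 3 fell, beside 47.1%, with a median of 0.58, so the sum there hides changes in both directions. STMN2 had 14.2 and 10.1 CPM in BMP-21 beside 0.122 and 0.25 in NT2-0, and INA 63.6 and 115 beside 140 and 203. The neuronal markers TUBB3 and NEFL were not analysed here. The summed level of 7 smooth muscle and fibroblast markers was 44.4 to 108 CPM in NT2-0, 5534 to 5619 in RA-21 and 27347 to 28528 in BMP-21. Nearly all of it in RA-21 was the collagen gene COL3A1 (5340 and 5368 CPM), while ACTA2, the actin of smooth muscle, had 5.86 and 7.15 CPM there. In BMP-21 most of it was also collagen, from COL3A1 (21945 and 19561 CPM) and COL1A1 (5171 and 6416), with ACTA2 at 151 and 106. MYH11, also on this list, had 15.3 and 8.02 CPM in BMP-5 but 0.78 and 0.693 in BMP-21, beside 1.46 and 0.974 in NT2-0. In BMP-10 the sum was 1933 CPM in replicate 1 and 14167 in replicate 2. Summed pluripotency markers were 871 and 185 CPM in these libraries, beside 693 and 785 in BMP-5 and 162 and 159 in BMP-21, so replicate 1 was nearer to BMP-5 and replicate 2 to BMP-21.

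NEUROG2 was almost silent outside RA. In NT2-0 it had 0.0811 and 0.0278 CPM, which are 4 and 2 counts. RA-5 replicate 1 had 0.0407 CPM and replicate 2 had 2.06 (141 counts), and the RA-10 libraries had 0.761 (40 counts) and 3.37 (226 counts). Both RA-21 libraries and all 4 libraries of BMP-5 and BMP-10 had 0 counts, and BMP-21 had 0.328 CPM and 0. Replicate 2 of RA-10 alone held 52.4% of all NEUROG2 counts in the series. Both RA-10 libraries lay above both NT2-0 libraries, yet the log2 fold change of 5.25 ± 2.18 (SE) did not pass the test (edgeR quasi-likelihood, Benjamini-Hochberg adjusted p = 0.126). The RA-10 replicates differed 4.42-fold.

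NEUROD1 and NEUROD4, which act after the neurogenins in differentiating neurons, had the same peak. NEUROD1 had 0 counts in both NT2-0 libraries, 0 and 0.408 CPM in RA-5, 0.343 CPM (18 counts) and 1.85 CPM (124 counts) in RA-10, and 0 and 0.108 CPM in RA-21. It had 0 counts in all 6 BMP2 libraries, so its reads came from RA libraries only, at a depth where 0 counts over the 2 libraries of a group allow up to 0.0213 to 0.0311 CPM. Against the floor of 3 counts over NT2-0, its mean over the RA-10 libraries was at least 44.2-fold higher, with an edgeR adjusted p of 0.0928. If each read of a pair was counted separately, this floor and the CPM limits above are too low. Every fold given as at least, here and below, is then too high. The annotated span of NEUROD1 overlaps that of CERKL, which is on the same strand and in the table, so how reads were divided between these genes is uncertain.

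NEUROD4 had 0.122 and 0.0278 CPM in NT2-0, 0 and 0.0292 in RA-5, and 0.266 (14 counts) and 1.76 (118 counts) in RA-10. RA-21 and all 6 BMP2 libraries had 0 counts. Its RA-10 libraries lay above those of NT2-0 (log2 fold change 3.77 ± 1.53 (SE), edgeR adjusted p = 0.129), and 83.1% of its counts in the series were in RA-10 replicate 2. NEUROG1, the other neurogenin, reached no more than 20 counts in any library and had 0 in 7 of the 14. Its values were 0.114 and 0.179 CPM in RA-10 but 0.355 and 0 in BMP-10, so at this depth no treatment stood apart for it.

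NHLH1, a bHLH factor of newly formed neurons, differed from the other 4 in being present in every library. It had 0.933 and 1.06 CPM in NT2-0, 1.24 and 0.933 in RA-5, 1.07 and 2.38 in RA-10, and 0.418 and 0.323 in RA-21. Under BMP2 it had 0.875 and 0.77 CPM in BMP-5, 1.17 and 0.469 in BMP-10, and 0.287 and 0.588 in BMP-21. RA-5 and BMP-10 overlapped NT2-0, RA-10 lay just above it, and BMP-5, RA-21 and BMP-21 lay below it. Neither difference at day 21 passed the edgeR test, with log2 fold changes of -1.42 ± 0.62 (SE, adjusted p = 0.0843) at RA-21 and -1.18 ± 0.62 (adjusted p = 0.139) at BMP-21.

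**Figure D1:**
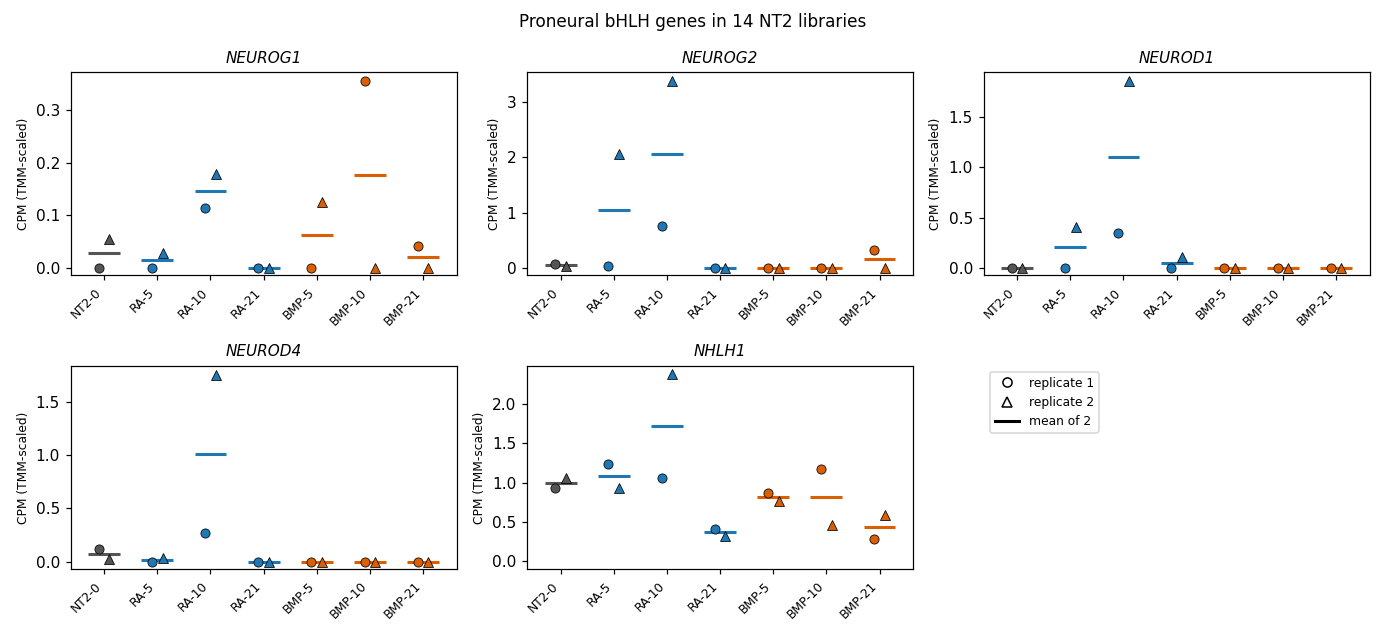
Level of the 5 bHLH genes in each library, with the group on the x axis and CPM after TMM scaling on a linear y axis that differs between panels. Circles are replicate 1, triangles replicate 2 and bars their mean. For NEUROG2, NEUROD1 and NEUROD4 the highest point is RA-10 replicate 2 (3.37, 1.85 and 1.76 CPM), while NHLH1 is above 0 in all 14 libraries.

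ELAVL3 and ELAVL4 were already present in untreated cells, peaked in 1 RA-10 library and were low under BMP2. ELAVL3 had 4.68 and 2.57 CPM in NT2-0, 0.631 and 1.95 in RA-5, 0.914 (48 counts) and 10.3 (694 counts) in RA-10, and 0.837 and 0.795 in RA-21. In the 6 BMP2 libraries it had between 0 and 0.133 CPM, with at most 7 counts in a library, and no BMP2 library reached any NT2-0 or RA library. It fell in all 3 BMP2 groups against NT2-0, with log2 fold changes of -5.79 ± 1.41 in BMP-5 (SE, edgeR adjusted p = 0.0133), -5.51 ± 1.39 in BMP-10 (adjusted p = 0.0124) and -4.84 ± 1.33 in BMP-21 (adjusted p = 0.0135). These calls were lost without BMP-5 replicate 2 (-4.71, adjusted p = 0.0695), without BMP-10 replicate 2 (-5.06, adjusted p = 0.0551) and without either BMP-21 library (-4.82 and -4.84, adjusted p = 0.0769 and 0.0834) respectively. At RA-10 the fitted change of ELAVL3 was 0.64 ± 1.08 (edgeR adjusted p = 0.704), and without RA-10 replicate 2 it was -1.96, so its sign rested on that library. The annotated span of ELAVL3 overlaps that of a gene model on the same strand, AC008481.3, and part of its reads may belong there. NEUROG2, ELAVL4 and RBFOX3 each have an antisense gene, whose reads cannot be told apart where counting ignores strand. The span of ELAVL4 also overlaps a processed pseudogene on the same strand, AL583843.1, and part of its reads may belong there.

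ELAVL4 had 2.13 and 2.41 CPM in NT2-0, 0.692 and 2.44 in RA-5, 2.11 (111 counts) and 20.4 (1371 counts) in RA-10, and 0.508 and 0.189 in RA-21. BMP-5 had 0.552 and 0.566 CPM, BMP-10 had 0.568 and 0.0447, and BMP-21 had 0 and 0.126. RA-10 replicate 1 was thus at the NT2-0 level and replicate 2 was 9.67-fold above replicate 1, which gave a log2 fold change of 2.31 ± 1.24 (SE, edgeR adjusted p = 0.198) and of -0.08 without replicate 2. Against NT2-0, ELAVL4 fell at BMP-21, with a log2 fold change of -5.13 ± 1.55 (edgeR adjusted p = 0.0207). The adjusted p was 0.0552 without NT2-0 replicate 2 and 0.105 without BMP-21 replicate 1.

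RBFOX3 was highest in untreated cells and lower in every treated library. It had 12.8 CPM (631 counts) and 9.61 CPM (691 counts) in NT2-0, 2.54 and 2.7 in RA-5, 1.87 and 1.97 in RA-10, and 0.717 and 0.566 in RA-21. Under BMP2 it had 0.495 and 1.26 CPM in BMP-5, 0.71 and 0.0894 in BMP-10, and 0.328 and 0.21 in BMP-21. In order of mean level, NT2-0 was followed by RA-5, RA-10, BMP-5, RA-21, BMP-10 and BMP-21, and libraries of neighbouring groups overlapped from BMP-5 downward, while NT2-0, RA-5 and RA-10 were separate from one another and from the rest.

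The fall of RBFOX3 against NT2-0 passed the edgeR test in 5 of 6 treated groups. The log2 fold change was -2.55 ± 0.72 in RA-10 (SE, adjusted p = 0.0295), -4.12 ± 0.78 in RA-21 (adjusted p = 0.00215), -3.67 ± 0.76 in BMP-5 (adjusted p = 0.00641), -4.78 ± 0.81 in BMP-10 (adjusted p = 0.00192) and -5.37 ± 0.84 in BMP-21 (adjusted p = 0.000698). At RA-5 the value was -2.10 ± 0.71 (adjusted p = 0.101), and without either BMP-10 library it was -2.09 (adjusted p = 0.0127 and 0.0125). At BMP-10 the call was lost with only the 4 libraries compared (adjusted p = 0.0663). The RA-10 call was lost without any 1 of the NT2-0, RA-10 or RA-21 libraries, at adjusted p of 0.0523 to 0.155, while its size stayed between -2.74 and -2.32. RBFOX3 reads are thinly spread over a long gene. The gene length implied by the deposited RPKM values, 527476 bases, is 1.24 times the annotated span and nearly all of such a span is intron, so part of these counts may be intronic. Summed pluripotency markers (POU5F1, NANOG, LIN28A, TDGF1 and DPPA4) moved in the same direction, from 5111 and 5777 CPM in NT2-0 to 139 and 140 in RA-21 and 159 to 162 in BMP-21, and their part in the result was not tested.

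ELAVL2 was the gene of the 9 with the most counts, 570 to 4198 per library, and the only one of the 9 called higher under BMP2. It had 11.6 and 10.3 CPM in NT2-0, 13.6 and 14.9 in RA-5, 32.5 and 32.4 in RA-10, and 9.92 and 12.2 in RA-21. Under BMP2 it had 68.5 and 21 CPM in BMP-5, 22.2 and 93.8 in BMP-10, and 32.4 and 76.4 in BMP-21. The BMP2 libraries all lay above those of NT2-0, RA-5 and RA-21, and replicates within each BMP2 group differed 3.27-fold, 4.22-fold and 2.36-fold. By mean level the order was BMP-10, BMP-21, BMP-5, RA-10, RA-5, RA-21 and NT2-0. The 3 BMP2 groups overlapped one another, RA-10 lay within the range of each, and RA-21 overlapped NT2-0.

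ELAVL2 rose against NT2-0, with log2 fold changes of 2.03 ± 0.68 in BMP-5 (SE, edgeR adjusted p = 0.0478), 2.41 ± 0.69 in BMP-10 (adjusted p = 0.0218) and 2.32 ± 0.69 in BMP-21 (adjusted p = 0.0195). These calls depended on single libraries. Without BMP-5 replicate 1 the BMP-5 value was 0.94 (adjusted p = 0.371), without BMP-10 replicate 2 the BMP-10 value was 1.02 (adjusted p = 0.218) and without BMP-21 replicate 2 the BMP-21 value was 1.59 (adjusted p = 0.136). Each was also lost without either NT2-0 library, at adjusted p of 0.0845 to 0.201, with sizes of 1.95 to 2.49. The higher library of a BMP2 group for ELAVL2 was also the one with more smooth muscle and fibroblast marker RNA at day 5 (4170 against 1913 CPM) and day 10 (14167 against 1933 CPM). At day 21 it was not (27347 against 28528 CPM). Most of the day 10 sum in the higher library was COL3A1 and COL1A1 (7753 and 5195 CPM). ACTA2 (319 against 115 CPM) and TAGLN (884 against 449) were also higher in it, but CNN1 (9.16 against 13) and MYH11 (1.52 against 6.42) were lower. The part of these markers in the result was not tested. In RA-10 the fitted change of ELAVL2 was 1.57 ± 0.67 (edgeR adjusted p = 0.117), with replicates of 32.5 and 32.4 CPM. The test estimates 1 spread per gene over all 7 groups, those of BMP2 included. Without both BMP-10 libraries it was 1.61 (adjusted p = 0.0338).

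**Figure D2:**
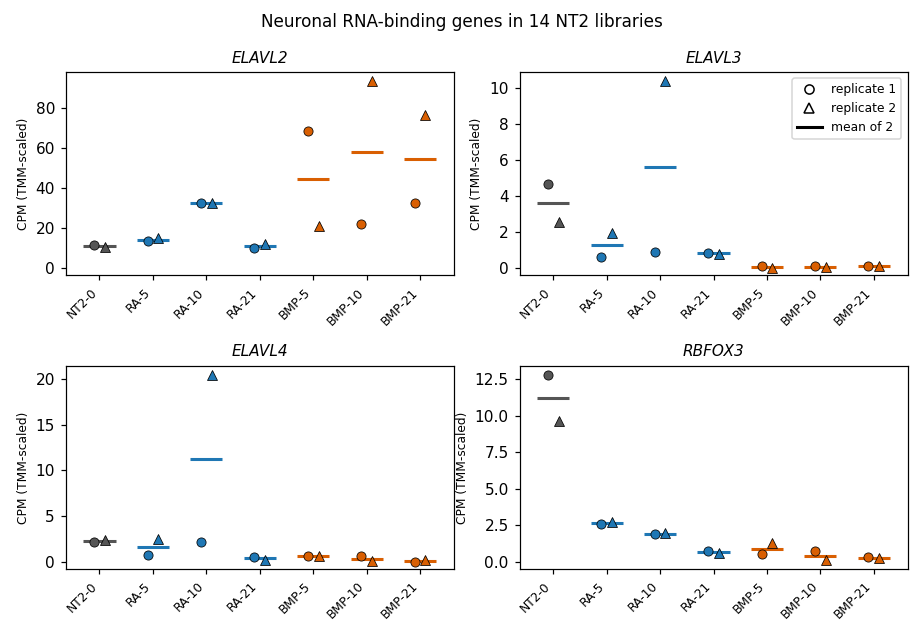
Level of the 4 RNA-binding genes in each library, with the group on the x axis and CPM after TMM scaling on a linear y axis that differs between panels. Circles are replicate 1, triangles replicate 2 and bars their mean. ELAVL3 and ELAVL4 have 1 high library each, RA-10 replicate 2 (10.3 and 20.4 CPM), RBFOX3 is highest in NT2-0, and the BMP2 replicates of ELAVL2 lie far apart.

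**Figure D3:**
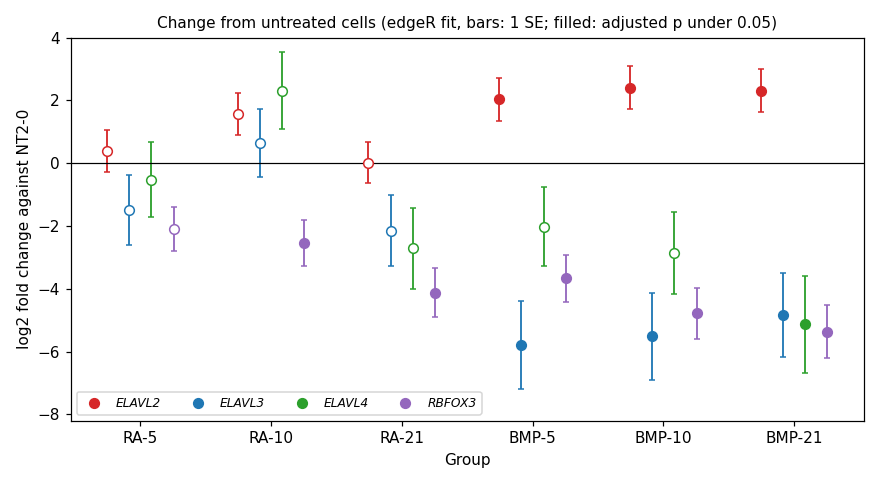
Log2 fold change from NT2-0 of the 4 RNA-binding genes in the edgeR fit, with the treated group on the x axis, bars of 1 SE and filled points where the adjusted p was under 0.05. ELAVL2 lies above 0 in all 3 BMP2 groups (2.03, 2.41 and 2.32), where the other 3 genes lie below 0.

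Counted over the 9 genes, the comparisons with NT2-0, which all share the same 2 control libraries, called few. At RA-5 the edgeR test called 0 of 9, against 8.31% of the 19142 genes, with 1 at an unadjusted p under 0.05 (RBFOX3), as 24.5% of all genes were, and 1 of the 8 it tested called by DESeq2, as 17.1% of all genes were. At RA-10 it called 1 of 9 (24% of all genes tested), and at RA-21 it called 1 of 9 (44.6%), in both cases RBFOX3. It called 3 of 9 at BMP-5 (29.2%) and at BMP-10 (36.3%), in both cases ELAVL2, ELAVL3 and RBFOX3, and 4 of 9 at BMP-21 (47.1%), with ELAVL4 added. These shares lie near or below those of all genes. By position alone, 6 of 9 had both RA-10 libraries above both NT2-0 libraries, beside 35.6% of all genes tested, and 6 of 9 had both RA-21 libraries below, beside 38.1%. The median fitted log2 fold change of the 9 was 2.21 at RA-10 and -2.70 at RA-21, or -1.42 with genes at 0 counts set to their bound, while that of all genes was 0.06 and 0.10.

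All 9 genes were lower at RA-21 than at RA-10 in both libraries, a pattern that 33.1% of the genes tested showed. By group mean, NEUROG2 was at least 97.1-fold lower (edgeR adjusted p = 0.0854). NEUROD4 was at least 47.6-fold lower (edgeR adjusted p = 0.0574) and NEUROG1 at least 6.89-fold lower (adjusted p = 0.194). The edgeR log2 fold change was -5.01 ± 1.41 (SE) for ELAVL4 (adjusted p = 0.0514), -2.21 ± 0.63 for NHLH1 (adjusted p = 0.0518) and -1.55 ± 0.67 for ELAVL2 (adjusted p = 0.161). The edgeR test thus called 0 of 9 here, beside 9.84% of all genes, with 6 of 9 at an unadjusted p under 0.05, as 28.9% of all genes were, and 5 of the 8 it tested called by DESeq2, as 21.6% of all genes were. Without both BMP-10 libraries, whose replicates differ most, it called 6 of the 8 in that fit lower, beside 21.6% of all genes called in either direction: NEUROG2, NEUROD4, NHLH1, ELAVL2, ELAVL4 and RBFOX3. In bulk RNA, fewer cells of a type and less RNA per cell cannot be told apart. From RA-5 to RA-10 the edgeR test called 0 of 9, as it called 0% of all genes, with 2 at an unadjusted p under 0.05 (NEUROD4 and ELAVL4), as 13.7% of all genes were, and 0 of 8 called by DESeq2 (3.88% of all genes).

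Tested directly against BMP2 at the same day, 2 of the 9 genes were called at day 10 (10.8% of all genes tested were), both higher under RA. ELAVL3 was higher by 6.15 ± 1.42 on the log2 scale (SE, edgeR adjusted p = 0.0247) and ELAVL4 by 5.16 ± 1.43 (adjusted p = 0.046). Without RA-10 replicate 2 these were 3.51 (adjusted p = 0.156) and 2.73 (adjusted p = 0.308), and without BMP-10 replicate 2 they were 5.70 (adjusted p = 0.0801) and 4.31 (adjusted p = 0.116). Of 20 alternative settings, the call held in 17 for ELAVL3 and in 8 for ELAVL4. By group mean, NEUROG2 was at least 69.6-fold higher in RA-10 than in BMP-10 (edgeR adjusted p = 0.0959). NEUROD1 was at least 36.9-fold higher (edgeR adjusted p = 0.14) and NEUROD4 at least 34.1-fold (adjusted p = 0.0635). None of these passed the edgeR test. In all, 6 of 9 genes had both RA-10 libraries above both BMP-10 libraries, beside 25.9% of all genes. At day 10, 6 of 9 had an unadjusted edgeR p under 0.05, as 27.7% of all genes had. DESeq2 called 5 of the 8 it tested, beside 20.7% of all genes: NEUROG2, NEUROD4, ELAVL3, ELAVL4 and RBFOX3. At day 5 the edgeR test called 0 of 9 (12.2% of all genes), with 3 at an unadjusted p under 0.05 (28.6% of all genes) and 2 of 8 called by DESeq2 (21.9%). At day 21 it called 0 of 9 (12.1%), with 1 at an unadjusted p under 0.05 (29.7% of all genes) and 1 of 8 called by DESeq2 (22.1%). The closest was ELAVL2, lower under RA by a log2 value of -2.29 ± 0.69 (edgeR adjusted p = 0.0565).

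The RA-10 replicates divided the 9 genes. Replicate 2 minus replicate 1, in log2 CPM with a prior count of 2, was 3.45 for ELAVL3, 3.25 for ELAVL4, 2.57 for NEUROD4, 2.32 for NEUROD1, 2.10 for NEUROG2, 1.14 for NHLH1 and 0.52 for NEUROG1. It was -0.01 for ELAVL2 and 0.08 for RBFOX3. Over all genes tested, 16.6% were more than 2-fold apart between these libraries. In RA-5, replicate 2 was likewise above replicate 1 by 4.80 for NEUROG2, 3.69 for NEUROD1, 1.77 for ELAVL4 and 1.58 for ELAVL3. The neuronal markers STMN2 (2.13 and 17.6 CPM in replicates 1 and 2 of RA-10) and TAGLN3 (2.93 and 19.7) differed in the same direction, whereas NEFM (718 and 369) and DCX (135 and 88.9) differed in the other. Summed neural progenitor markers were 528 and 1038 CPM in these libraries, and smooth muscle and fibroblast markers 1585 and 847, and their part in the result was not tested.

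**Figure D4:**
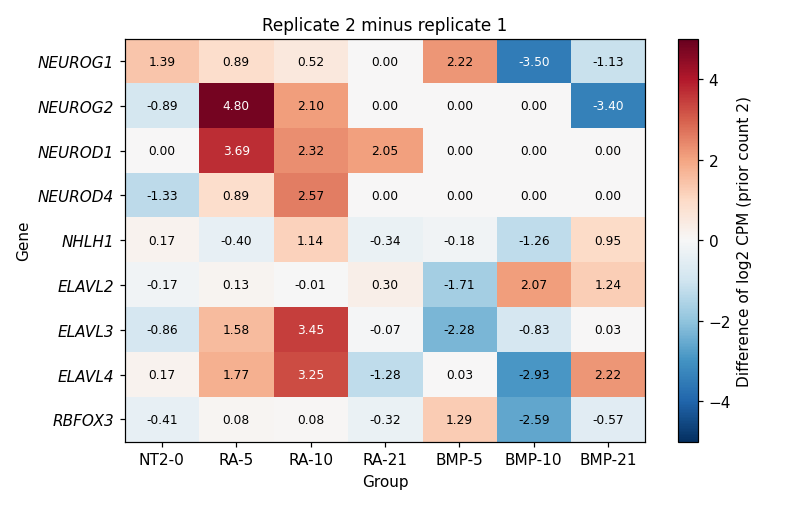
Replicate 2 minus replicate 1 for each gene (rows) and group (columns), as a difference of log2 CPM with a prior count of 2, printed in each cell and coloured from blue (replicate 2 lower) to red (replicate 2 higher). The RA-10 column is red for 6 genes at 1.14 to 3.45, near 0 for ELAVL2 and RBFOX3, and the BMP-10 column holds differences from -3.50 to 2.07.

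Pearson correlations of log2 CPM over the 14 libraries, which share groups and depth between genes, describe how alike the patterns were. NEUROG2 and NEUROD1 correlated at 0.84, NEUROD1 and NEUROD4 at 0.80, NHLH1 and ELAVL4 at 0.86, and ELAVL3 and ELAVL4 at 0.76, whereas ELAVL2 and RBFOX3 correlated at -0.71. Among genes of at least 5 CPM in a group, those most like NEUROG2 were MMRN1 (0.85), RAB40A (0.82) and FRMPD3 (0.81). NEUROD1 was close to MMRN1 (0.85) and CEP41 (0.83), and NEUROD4 most like OLIG3 (0.86), POU2F2 (0.84) and EXTL3 (0.81). For NHLH1 the nearest were CAMSAP1 (0.95), AGO1 (0.91) and ECEL1 (0.90). ELAVL2 was nearest to SHOC2 (0.95), STK10 (0.93) and PTPN1 (0.92), ELAVL3 to SLCO5A1, C17orf75 (both 0.92) and XPR1 (0.91), and ELAVL4 to EMC3-AS1 (0.95), NGFR (0.93) and SLC1A2 (0.92). RBFOX3 was nearest to PGBD5, PDE9A and SAPCD2 (all 0.97). NEUROG1 stayed under 1 CPM in every group and was left out.

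Among other neural bHLH genes, OLIG2 had 4.64 and 3.62 CPM in NT2-0 and 0.914 and 1.04 in RA-10, where it fell, with a log2 fold change of -2.07 ± 0.60 (SE, edgeR adjusted p = 0.0319). OLIG3, at 1.18 and 10.4 CPM in RA-10, was higher in replicate 2, as NEUROD4 was. The mean of OLIG3 was at least 273-fold lower at RA-21 (edgeR adjusted p = 0.0409). Of 3 E-protein partners 0 were called against NT2-0 at RA-5, RA-10 or RA-21, where 8.31%, 24% and 44.6% of all genes were. TCF4 rose in the 3 BMP2 groups by log2 values of 1.13, 0.93 and 1.41, where 29.2%, 36.3% and 47.1% of all genes were called. TCF3 fell at BMP-21 (-0.68 ± 0.19, edgeR adjusted p = 0.0153). Of 9 HES, HEY and ID inhibitors, 2 rose and 0 fell at RA-10, where 24% of all genes were called. These were HES1 (1.51 ± 0.22, edgeR adjusted p = 0.00172) and ID3 (1.36 ± 0.39, adjusted p = 0.0305). At BMP-5 2 rose and 0 fell, HES1 and HEY1 (5.72 ± 1.53, edgeR adjusted p = 0.0196), beside 29.2% of all genes called.

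Of 14 genes known to act downstream of proneural factors, 3 rose and 0 fell at RA-10 against NT2-0, a share near the 24% of all genes called: the Notch ligand DLL3 (log2 fold change 1.99 ± 0.60 (SE), edgeR adjusted p = 0.0372), EBF1 (1.16 ± 0.38, adjusted p = 0.0477) and CBFA2T2 (1.00 ± 0.25, adjusted p = 0.0174). From RA-10 to RA-21, 3 fell and 1 rose, beside 9.84% of all genes called. INSM1 (-7.23 ± 1.55, edgeR adjusted p = 0.0275), DLL1 (-4.22 ± 1.00, adjusted p = 0.0316) and HES6 (-2.37 ± 0.56, adjusted p = 0.0314) fell, and EBF1 rose. The 3 that fell had not been called at RA-10 against NT2-0. INSM1 had 4.46 and 10.4 CPM in NT2-0 beside 0.723 and 4.23 in RA-10. HES6 had 26.9 and 23.3 beside 11.3 and 16.7, and DLL1 5.11 and 4.06 beside 4.05 and 7.73. Of 12 other neuronal RNA-binding and splicing genes, 4 rose and 0 fell at RA-10 (24% of all genes called): CELF3 (4.91 ± 1.41, edgeR adjusted p = 0.0306), NOVA2 (2.96 ± 0.71, adjusted p = 0.0151), NOVA1 (1.02 ± 0.32, adjusted p = 0.0442) and RBFOX2 (0.51 ± 0.12, adjusted p = 0.0141). NOVA2, a splicing regulator of neurons, had 42.8 and 36.4 CPM in RA-10 beside 7.56 and 2.67 in NT2-0 and at most 1.47 in the BMP2 libraries. CELF3 had 4.64 and 10.4 CPM in RA-10. Against NT2-0, 6 of the 12 fell and 2 rose at BMP-5 (29.2% of all genes called), 7 fell and 1 rose at BMP-10 (36.3%), and 5 fell and 1 rose at BMP-21 (47.1%), RBFOX2 rising in all 3. The widely expressed relative of the ELAVL genes, ELAVL1, was called only at BMP-21, where it fell by 0.45 ± 0.13 on the log2 scale (edgeR adjusted p = 0.0207). PTBP1, the splicing repressor of non-neuronal cells, fell, with log2 fold changes of -0.60 ± 0.19 at RA-10 (SE, edgeR adjusted p = 0.0452), -1.16 ± 0.19 at RA-21 (adjusted p = 0.00112), -0.66 ± 0.19 at BMP-10 (adjusted p = 0.0224) and -1.29 ± 0.19 at BMP-21 (adjusted p = 0.000575).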

How the data were processed

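RNA of 14 NT2 libraries was analysed from 2 tables: raw read counts deposited by the authors, and RPKM of the same genes made by the authors. The submitters' processing notes name STAR, featureCounts, DESeq2 and hg19, without versions or roles. Even counts made up 65.98% to 73.5% of counts from 1 to 19, which is what counting each read of a pair separately would give. The gene length implied by the deposited RPKM lay within 1% of the whole gene span for 89.03% of 5814 genes with at least 1000 counts in every library, so RPKM was used in alternatives only, and the sources used here do not give whether counts include introns. Symbols came from a gene name list for 25214 of 25952 identifiers. Groups and replicate numbers were taken from titles. The RA day 21 descriptions carry other numbers. No 2 libraries were identical.

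Genes were tested with edgeR 4.0.16 in R 4.3.3 (TMM, filterByExpr with a minimum count of 10, all 14 libraries, a mean per group, quasi-likelihood F tests, Benjamini-Hochberg over 19142 genes, called at adjusted p under 0.05) in 11 comparisons. Degrees of freedom were 7 (residual) and 3.08 (prior), and the common coefficient of variation was 0.368. The SE is the size of the log2 fold change over the square root of F. An exact permutation test of 2 libraries against 2 cannot go below p = 0.333 and was not used. Folds against a group at 0 set the mean of the other group against 3 counts over that group. Such a bound covers counting error in the group at 0 only, not the gap between replicates. The limit of 3 counts is too low, and the fold too high, if each read of a pair was counted separately. In data simulated for RA-10 against NT2-0 (18546 genes), 4.2% of 2-fold, 40% of 4-fold and 56% of 8-fold changes were recovered, so smaller changes can be missed. Only 48 to 50 genes, drawn at random, were changed at each fold, while 24% of all genes were called in the data. The rates therefore do not give the chance of a call for the 9 genes. Alternatives were RLE factors, no filter, a CPM filter, DESeq2 1.42.0, a replicate block, only the 4 libraries compared, limma 3.58.1 on log2(RPKM + 1) and log2(RPKM + 0.1), and leaving out each library. Fits without both BMP-10 libraries were added after seeing the data. The 9 genes and the lists were chosen with earlier results of these data known. Named from the lists were up to 4 called genes per list and comparison, by size of change. Named as alike were the 3 genes with the highest r. A gene that these rules name is not reported here. OLIG2, OLIG3, STMN2, TAGLN3, NEFM and DCX were given by library after their values were seen. Figures were drawn with Python 3.11.15 and matplotlib 3.10.9. The neural crest and glia, endocrine and endoderm marker lists were also fixed. At RA-10 against NT2-0 they had 0, 1 and 1 members called higher and 1, 0 and 0 called lower, of 6, 3 and 4 tested. Of all genes tested, 24% were called in that comparison.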

Additional observations from a re-analysis of the deposited data

Results flagged for a closer look

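The change from NT2-0 differed between the treatments at day 10 for ELAVL3 and ELAVL4, by the direct edgeR test of RA-10 against BMP-10. The difference, RA minus BMP2, was 6.15 on the log2 scale for ELAVL3 and 5.16 for ELAVL4. Both rest in part on RA-10 replicate 2, without which they were 3.51 (edgeR adjusted p = 0.156) and 2.73 (adjusted p = 0.308). Of 20 alternative settings, the call held in 17 for ELAVL3 and in 8 for ELAVL4. With 2 libraries per group, gaps between the libraries of a group were given as values and not tested.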

How the results depend on the processing

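Of 670 values of single genes under the alternatives, for 32 results, 581 kept their direction and their side of the threshold, 51 kept the direction and lost the call, 34 gained a call and 4 changed sign. Those 4 were ELAVL3 at RA-10 against NT2-0 (-1.96 without RA-10 replicate 2, and up to 1.54 when another library was left out), ELAVL4 there (-0.0785 and up to 3.198), NEUROG1 in RA-10 against BMP-10 (6.12 without BMP-10 replicate 1, and down to -1.26) and ELAVL2 there (0.55 without BMP-10 replicate 2, and down to -1.53). The RBFOX3 calls at RA-21, BMP-5 and BMP-21 held in 21 of 21 alternatives, and that of ELAVL2 at BMP-5 in 11 of 23.

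Counts of the 9 genes called moved as follows, and the cause was not tested. DESeq2 called 1 at RA-5 and 3 at RA-21 against NT2-0, and 2, 5 and 1 for RA against BMP2 at days 5, 10 and 21, and 5 for RA-21 against RA-10. It tested 8 or 9 of the 9 genes and called 17.1%, 50.1%, 21.9%, 20.7%, 22.1% and 21.6% of all genes in these comparisons. With only the 4 libraries compared, 1, 4 and 4 were called at RA-5, RA-10 and RA-21 against NT2-0, 1 at BMP-10, 0 and 2 for RA against BMP2 at days 10 and 21, and 6 for RA-21 against RA-10. These fits held 5, 8, 5, 5, 9, 5 and 8 of the 9 genes and called 16.6%, 32.3%, 66.6%, 6%, 0.052%, 30.8% and 28.2% of all genes. Without a low-count filter, 2 were called at RA-10 against NT2-0, 2, 4 and 1 for RA against BMP2 at days 5, 10 and 21, and 3 for RA-21 against RA-10, beside 16.5%, 9.73%, 9.38%, 9.27% and 7.9% of all genes. RLE factors and the CPM filter called 2 for RA-21 against RA-10 (10.3% and 13.8% of all genes), of 9 and 6 in the fit. Both limma fits called 0 at RA-10, RA-21, BMP-5, BMP-10 and BMP-21 against NT2-0 and 0 for RA-10 against BMP-10. Their filter left 2 of the 9 genes (NEUROG2 and ELAVL2). On log2(RPKM + 1) the shares of all genes called in these comparisons were 28%, 52.8%, 33.6%, 41%, 54.4% and 16%. On log2(RPKM + 0.1) they were 28.6%, 53.8%, 35.1%, 43.4%, 56.2% and 16.2%. Without both BMP-10 libraries, 1 and 2 were called at RA-5 and RA-10 against NT2-0, 3 and 1 for RA against BMP2 at days 5 and 21, and 6 for RA-21 against RA-10, of 8 in the fit and beside 15.1%, 33.6%, 22.4%, 23% and 21.6% of all genes.

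Leaving out 1 library at a time leaves 1 library in a group. It changed the number of the 9 genes called in every comparison except RA-21 against NT2-0 and RA-10 against RA-5. The share of all genes called also moved with the library left out, and whether the 9 genes moved more than all genes was not tested. Replicate numbers did not pair the libraries: deviations of same-numbered libraries correlated at -0.34 to 0.15 over 21 pairs of groups, 3 of them over 0.1. With the number as a replicate block, 2 of 9 were called at RA-10 against NT2-0 (NEUROD1 and RBFOX3), beside 22.1% of all genes. For RA-10 against BMP-10 the block fit called 1 (ELAVL3), beside 8.68% of all genes. At BMP-5 the call of ELAVL2 was lost under the block (2.10, edgeR adjusted p = 0.0549). NEUROG2, NEUROD1 and NEUROD4 had at most 226 counts per library, which limits their precision.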
